A study of Rattus norvegicus with 18 samples.

Results

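The genes described here encode the machinery that brings proteins into mitochondria: the TOM and TIM translocases, the small TIM chaperones, the import motor and the mitochondrial processing peptidase. They were taken by a rule on names, as every gene whose symbol begins with Timm or Tomm and a digit, together with Pam16, Dnajc19, Grpel1, Grpel2, Hspa9, Pmpca and Pmpcb. The members were chosen with earlier results of these data known. The rule found 27 of the 13188 genes in the expression table. By role these were 7 Tomm genes (Tomm20, Tomm22, Tomm40, Tomm40l, Tomm7 and Tomm70a of the outer membrane, and Tomm34, whose product is cytosolic), 7 small TIM chaperones (Timm8a1, Timm8a2, Timm8b, Timm9, Timm10, Timm10b and Timm13), Timm22, 4 genes of the TIM23 channel (Timm17a, Timm17b, Timm21 and Timm23), 6 genes of the import motor (Timm44, Pam16, Dnajc19, Grpel1, Grpel2 and Hspa9) and the 2 peptidase subunits.

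The study sequenced polyadenylated RNA from rat HO15.19 fibroblasts, a myc-/- line derived from Rat1 cells, to ask which genes respond to MYC. All 18 libraries therefore carried the same loss of both rat myc alleles, in 6 groups of 3. The smaller set of 6 libraries held myc-/- cells given a control siRNA (myc-/- siCtrl) and myc-/- cells reconstituted with human MYC from a viral vector as a stable line (myc-/- + MYC). The larger set of 12 held myc-/- cells, and myc-/- + MYC cells given siCtrl, siAHR-2 or siAHR-5, the last 2 being siRNAs that target the aryl hydrocarbon receptor, AHR. Transfected cells received siRNA at 40 nM and were harvested at 48 h, in medium with 10% serum. In each comparison of cells with and without MYC the siCtrl label changed along with MYC, so these cannot be told apart, and a stable line from infected cells limits the comparison to that line. The values were on a log2 scale and the sets stood at different levels: 26 of the 27 members had a higher mean in the larger set than in the smaller, by a median of 0.96 over the members (0.64 over all genes). Comparisons were therefore made within a set.

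Nearly all mitochondrial proteins are made in the cytosol and must cross one or both mitochondrial membranes. Precursors are recognised by receptors of the TOM complex and pass through its Tomm40 pore. Carrier proteins are then escorted through the intermembrane space by the small TIM chaperones to TIM22, whereas precursors with a cleavable leader pass through the TIM23 channel, are pulled in by the Hspa9 motor and lose the leader to the processing peptidase. MYC, a transcription factor that binds DNA together with MAX, is known for raising genes of growth and mitochondrial biogenesis.

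The start regions of the members are shown because MYC and AHR are both DNA-binding factors. RefSeq sequences of the rat build GRCr8, running from 250 bases before to 50 bases after each start site, were matched to 26 of the 27 members, 25 by symbol and Tomm70a by its synonym; Tomm34 had no entry. The letters CACGTG, the E-box bound by MYC with MAX and the same on both strands, occurred in 4 of the 26 (Timm8a1, Timm9, Timm10 and Hspa9), which is 15.4% beside 6.42% of all 33469 start regions. The variant E-box CACGCG, searched on both strands, occurred in 5 (Tomm20, Timm8b, Timm21, Pam16 and Grpel2), or 19.2% beside 8.5% of all. The core of the AHR response element, GCGTG on either strand, is contained in the variant E-box and occurred in 12 of the 26, or 46.2% beside 29.7% of all. Stretches of 30 bases follow for the 3 E-box genes of the small TIM family and for Pam16, 5′ to 3′ on the gene's strand, with the E-box or variant in capitals. Timm9 and Pam16 are the genes that rose with MYC in both sets, and Timm10 is the partner of Timm9 in the same chaperone. Of the matched genes not shown, Tomm20 and Hspa9 were higher and Grpel2 lower with MYC in both sets at a false discovery rate under 5%. Timm21 was higher in the larger set only, and Timm8b passed in neither.
Timm9: catcactgccccCACGTGttctccgctatc
Timm10: ccggaagtgaccCACGTGcttcttatttcg
Timm8a1: ccttcactggacCACGTGgtatgaagcaac
Pam16: cgcgtccttgcgCACGCGctctcccatctt
The Timm9 stretch lies at chr6:95358867-95358896 on the minus strand and its E-box begins 12 bases into the transcript, counting the start site as 1. The Timm10 stretch lies at chr3:90315114-90315143 on the plus strand, with the E-box beginning at position -13. The Timm8a1 stretch lies at chrX:102015485-102015514 on the minus strand, with the E-box at -58, and the Pam16 stretch at chr10:11449449-11449478 on the plus strand, with the variant at -31. A match of letters is a description and not evidence of binding, and no binding was measured in these samples.

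The label checks came first. Ahr, the gene aimed at by the siRNAs, stood at 13.34, 13.26 and 13.23 in myc-/- + MYC siCtrl cells, at 11.97, 11.97 and 12.03 with siAHR-2 and at 11.95, 11.76 and 11.94 with siAHR-5. It thus fell with each siRNA, by 1.29 and 1.39 on the log2 scale (adjusted p = 0.000237 and 0.000216 by limma). With a replicate block in the fit, 0 genes were called with siAHR-2, so Ahr was not called there. The block shifted the log2FC over all genes by a median of 0. Rat Myc was lower in cells with human MYC in both sets (log2FC -1.26 and -2.68), and stood at 9.16 to 9.47 in myc-/- siCtrl and 10.83 to 10.94 in myc-/- cells; the sources used here do not say which part of the gene the row counts, so it does not check the deletion. All 10 fibroblast markers were in the table, with Col1a2 and Fap among the low ones; their summed log2 level ranged from 20.82 to 20.83 in myc-/- siCtrl against 19.90 to 19.99 in myc-/- + MYC, and from 22.0 to 22.2 in myc-/- against 20.2 to 20.3 in myc-/- + MYC siCtrl. With MYC, 4 of the 10 fell and 1 rose in the smaller set, and 5 fell and none rose in the larger set. Of 20 markers of epithelial, endothelial, blood, muscle and neural cells, 2 rose and 5 fell in the smaller set and 1 rose and 4 fell in the larger set; their summed log2 levels moved in both directions. Without and with MYC, epithelial markers summed to 8.69 to 8.70 against 8.85 to 9.004 in the smaller set and to 7.89 to 8.03 against 8.83 to 9.16 in the larger; among them Krt8 rose (log2FC 1.70 and 1.17) and Cldn4 fell in the smaller set (-0.84). Endothelial markers summed to 9.97 to 10.03 against 9.06 to 9.20 and to 10.61 to 10.80 against 9.75 to 9.84, and blood markers to 9.62 to 9.73 against 8.39 to 8.53 and to 8.48 to 8.57 against 7.96 to 8.14. Muscle markers summed to 10.17 to 10.30 against 8.90 to 9.14 and to 10.37 to 10.62 against 8.96 to 9.15, and neural markers to 6.51 to 6.55 against 5.96 to 5.98 and to 5.46 to 5.64 against 5.33 to 5.39. Fewer cells of a type and less RNA per cell cannot be told apart in such bulk libraries, and the part of these markers in the results below was not tested. Within myc-/- cells, replicate 2 was the highest of the 3 libraries for 22 of the 27 import genes, with a median deviation from the group mean of 0.09 beside 0.00 over all genes. Other libraries also stood to one side: myc-/- + MYC replicate 1 was the lowest for 18 members (median deviation -0.05), siAHR-5 replicate 2 the highest for 18 (0.03), siAHR-2 replicate 3 the lowest for 16 (-0.02), and of myc-/- + MYC siCtrl replicate 1 was the lowest for 17 (-0.02) and replicate 3 the highest for 16 (0.02).

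With MYC, most import genes were slightly higher, and few passed the fold cutoff. A gene was called when it changed by at least 1.5-fold (0.585 on the log2 scale) with an adjusted p of at most 0.01 by limma, the cutoffs of the study. In the smaller set, 3 members rose (Timm9, Pam16 and Timm10b) and 1 fell (Timm8a2), 4 of 27 against 26.8% of all genes called (12.5% higher and 14.3% lower). Members that rose in the larger set were also 3 in number (Timm9, Timm13 and Pam16), with none that fell, against 25.5% of all genes (10.8% higher and 14.7% lower). With quantile scaling 7 and 6 of 27 were called, beside 26.4% and 26.2% of all genes. The balance of directions over all genes turned under that scaling, from 1653 higher and 1885 lower to 1799 and 1684 in the smaller set, and from 1425 and 1936 to 1796 and 1661 in the larger. Timm9 and Pam16 rose in both sets, 2 of 27 or 7.41%, while 15.8% of all genes were called in the same direction in both.

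At a false discovery rate (FDR) under 5% with no fold cutoff, which includes the called members, 14 members were higher and 4 lower with MYC in the smaller set, beside 37.3% of all genes higher and 39% lower. The larger set had 17 members higher and 3 lower, beside 31.6% and 33.1%; the 17 include Timm8a2, with a log2FC of 0.08 (adjusted p = 0.0279) at the bottom of its range. The members' median log2FC was 0.19 in the smaller set and 0.30 in the larger set, where the medians over all genes were -0.00 and -0.00. Values of cells with and without MYC did not overlap for 18 members in the smaller set and for 22 in the larger set, beside 78.8% and 70.5% of all genes.

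**Figure D1:**
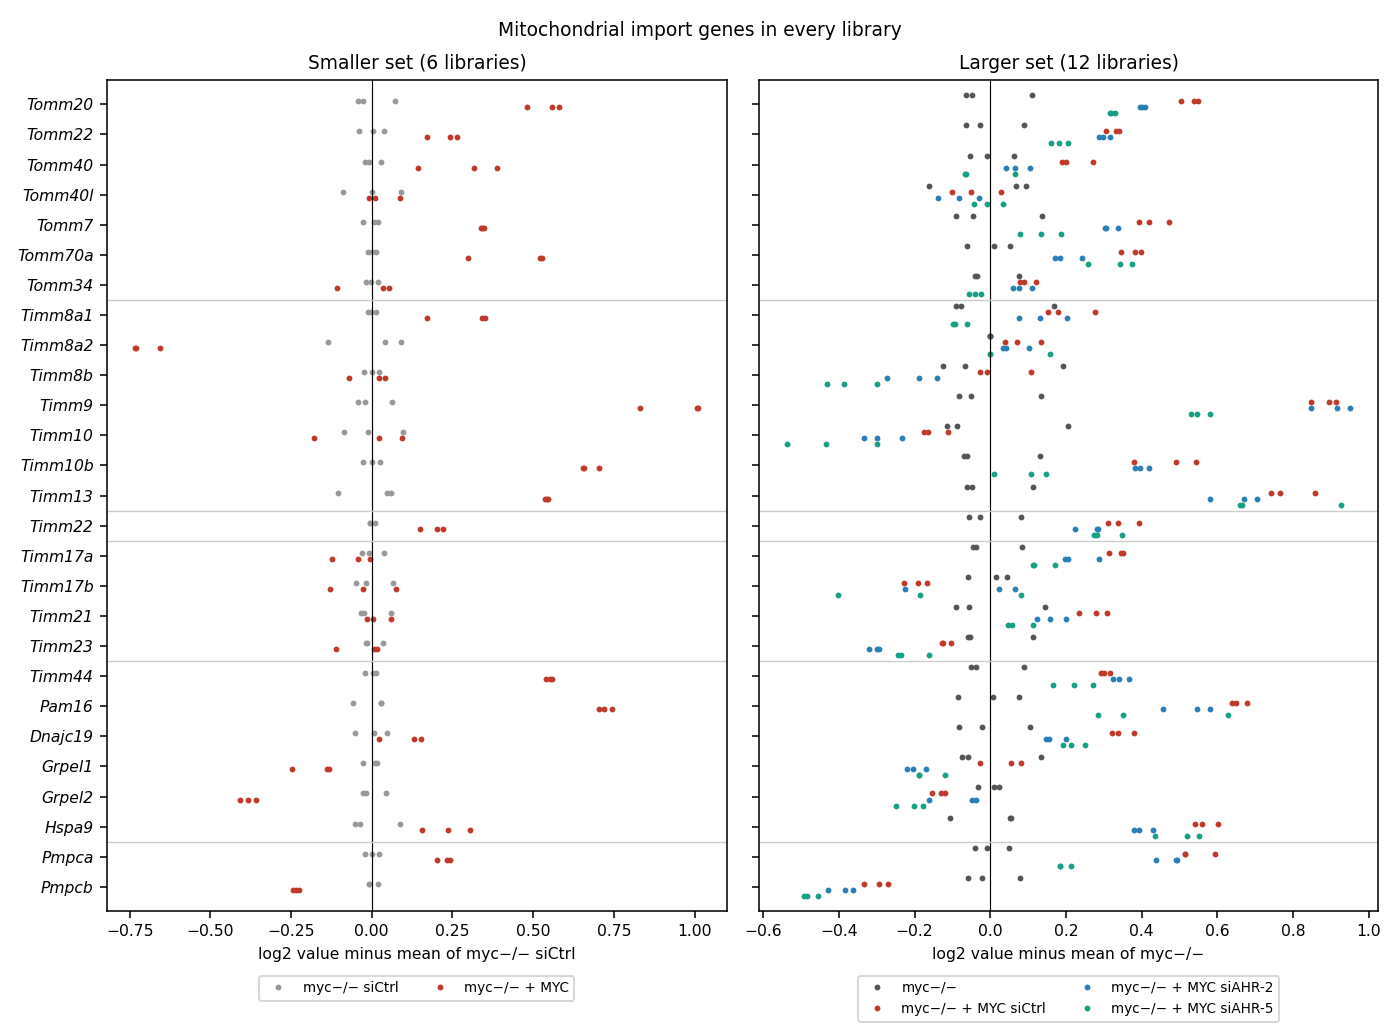
Each point is 1 library, drawn as its log2 value minus the mean of the cells without MYC in the same set (myc-/- siCtrl at left, myc-/- at right), for the 27 import genes grouped by role. Among cells given MYC and no siRNA against AHR, Timm9 lies farthest to the right in both panels. Timm8a2 lies far to the left with MYC in the smaller set only.

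Among the Tomm genes, 5 of 7 were higher with MYC at an FDR under 5% in each set, beside 37.3% and 31.6% of all genes. None was called, beside 26.8% and 25.5% of all genes. Tomm20, the receptor for leader sequences, had a log2FC of 0.54 in the smaller set and 0.53 in the larger set (adjusted p = 1.52e-07 and 0.000237), just under the fold cutoff. Tomm70a, the receptor for carrier precursors, had 0.45 and 0.38, and Tomm7, a small subunit of the core complex, had 0.34 and 0.43. Tomm22, the receptor that organises the complex, had 0.23 and 0.33. Tomm34, a cytosolic cochaperone, had -0.01 and 0.10 and did not pass in either set. The Tomm20 gene overlaps Rbm34 in RefSeq, and Rbm34 itself had a log2FC of 0.56 and 0.70; the library kit named in the labels does not mark strand, so reads of overlapping genes cannot be told apart. The same limit holds for Tomm34, which overlaps Stk4 (log2FC -0.24 and -0.34), for Tomm40l, which overlaps Nr1i3 (0.13 and 0.01), and for Timm8b, which overlaps Nkapd1, a gene with no row under that name.

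The pore gene and its paralog were set side by side. Tomm40 stood at 13.03, 13.02 and 13.06 in myc-/- siCtrl and at 13.18, 13.35 and 13.42 in myc-/- + MYC cells, and at 14.01, 14.12 and 14.05 in myc-/- against 14.25, 14.33 and 14.26 in myc-/- + MYC siCtrl cells. The groups did not overlap in either set, and the log2FC was 0.28 and 0.22 (adjusted p = 0.000507 and 0.00409). Tomm40l, a related pore gene of lower value, stood at 10.24, 10.42 and 10.34 against 10.34, 10.42 and 10.32 in the smaller set, and at 11.08, 10.85 and 11.11 against 10.96, 10.91 and 11.04 in the larger set. Its groups overlapped in both sets, with 95% confidence intervals of the log2FC from -0.10 to 0.15 and from -0.24 to 0.16.

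The small TIM chaperones held Timm9, the member with the largest rise in each set, and Timm8a2, with the largest fall in the smaller set; in the larger set the lowest member was Pmpcb, of the peptidase. Timm9, which forms a ring-shaped chaperone with Timm10, stood at 10.38, 10.30 and 10.27 in myc-/- siCtrl cells and at 11.15, 11.32 and 11.33 in myc-/- + MYC cells. The larger set gave 11.41, 11.59 and 11.38 in myc-/- and 12.31, 12.35 and 12.37 in myc-/- + MYC siCtrl cells. Every library with MYC was above every library without it in the same set. The log2FC was 0.95 ± 0.06 (SE) and 0.89 ± 0.06, with adjusted p-values of 3.77e-08 and 6.53e-05, a rise of 1.93-fold and 1.85-fold. The Timm9 gene overlaps Kiaa0586 and Tomm20l in RefSeq, neither of which had a row under that name.

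Timm10 did not follow its partner. It stood at 10.31, 10.20 and 10.13 without and 10.04, 10.24 and 10.31 with MYC in the smaller set, and at 11.31, 11.60 and 11.28 against 11.22, 11.23 and 11.29 in the larger set. These groups overlapped, with log2FC of -0.02 (95% confidence interval -0.18 to 0.14) and -0.15 (-0.38 to 0.08).

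Timm10b, a peripheral small TIM protein that helps dock the chaperone on TIM22, rose in the smaller set from 10.87, 10.90 and 10.84 to 11.53, 11.57 and 11.53. In the larger set it stood at 11.63, 11.83 and 11.62 without and 12.08, 12.24 and 12.19 with MYC. The groups were separate in both sets, but the log2FC of 0.67 in the smaller set passed the fold cutoff and that of 0.47 in the larger set did not. The difference between these effects was -0.20 (adjusted p = 0.0493).

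Timm13, the partner of the Timm8 proteins in a second chaperone, showed the opposite order. It stood at 12.66, 12.82 and 12.81 without MYC and 13.31, 13.30 and 13.31 with MYC in the smaller set, and at 13.18, 13.35 and 13.19 against 14.00, 13.98 and 14.10 in the larger set. The log2FC of 0.54 missed the fold cutoff and that of 0.79 passed it (adjusted p = 3.84e-07 and 7.27e-05), with a difference between the sets of 0.25 (adjusted p = 0.013).

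The Timm8 genes moved less than Timm13 or in other directions. Timm8a1 stood at 10.88, 10.85 and 10.86 without and 11.03, 11.22 and 11.20 with MYC in the smaller set (log2FC 0.29, adjusted p = 0.000428). In the larger set it stood at 12.08, 12.34 and 12.09 without and 12.35, 12.32 and 12.45 with MYC, where the groups overlapped and the log2FC of 0.20 did not pass (adjusted p = 0.0697). Timm8b stood at 11.64, 11.60 and 11.62 against 11.55, 11.66 and 11.64, and at 12.33, 12.59 and 12.27 against 12.37, 12.50 and 12.39, and overlapped in both sets (95% confidence intervals -0.09 to 0.09 and -0.20 to 0.25).

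Timm8a2, a close paralog of Timm8a1, was the member that fell. It stood at 6.01, 6.19 and 6.24 in myc-/- siCtrl and 5.49, 5.41 and 5.41 in myc-/- + MYC cells, a log2FC of -0.71 (adjusted p = 9.83e-07). All 12 libraries of the larger set lay between 3.30 and 3.46, and all 3 myc-/- libraries at 3.30. This was the lowest member and the exception to the offset between the sets, with an offset of -2.44. Reads of Timm8a1 and Timm8a2 could be split between the copies, and a pseudocount of 64, which brought the log2FC to -0.33, ended the call.

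TIM22 was higher with MYC in both sets. In the larger set 3 of the 4 TIM23 channel genes passed an FDR of 5%, beside 64.7% of all genes. The difference between the sets passed for 2 of these, Timm17a and Timm21. Timm22, the carrier translocase of the inner membrane, had log2FC of 0.19 and 0.35 (adjusted p = 0.000709 and 0.000941). Of the 4 TIM23 channel genes, none passed at an FDR under 5% in the smaller set, beside 76.2% of all genes, and log2FC ran from -0.06 to 0.02. In the larger set, Timm17a and Timm21 were higher (0.34 and 0.27), Timm17b was lower (-0.20), and Timm23, the channel subunit itself, had -0.12 (adjusted p = 0.0908).

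The paralogs Timm17a and Timm17b, alternative structural subunits of the channel, separated in the larger set. Timm17a stood at 13.12, 13.25 and 13.13 in myc-/- and at 13.52, 13.51 and 13.48 in myc-/- + MYC siCtrl cells. Timm17b stood at 9.42, 9.45 and 9.35 and at 9.18, 9.24 and 9.21, so that neither paralog overlapped and they moved in opposite directions (adjusted p = 0.000682 and 0.0166). In the smaller set, Timm17a stood at 12.40, 12.33 and 12.35 against 12.24, 12.32 and 12.35. Timm17b there stood at 9.10, 9.14 and 9.22 against 9.23, 9.02 and 9.13. Both overlapped, and the MYC effect on Timm17a differed between the sets by 0.39 (adjusted p = 8.16e-05), whereas that on Timm17b did not pass (-0.17, adjusted p = 0.132).

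In the import motor, Pam16 rose in both sets. Pam16, the regulator that holds the J-protein of the motor, stood at 10.43, 10.35 and 10.43 in myc-/- siCtrl and 11.15, 11.11 and 11.13 in myc-/- + MYC cells. In the larger set it stood at 11.00, 11.07 and 10.91 without MYC and 11.63, 11.64 and 11.67 with it. All libraries with MYC were above those without, and the log2FC was 0.72 ± 0.04 (SE) and 0.66 ± 0.05 (adjusted p = 4.22e-08 and 7.92e-05). Dnajc19, a J-protein of the motor, had a log2FC of 0.10 in the smaller set (adjusted p = 0.0808) and 0.35 in the larger set (adjusted p = 0.00198). Fxr1, which overlaps Dnajc19 in RefSeq, had 0.29 and 0.56.

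The remaining motor genes differed in size and sign. Timm44, which tethers the motor to the channel, had a log2FC of 0.55 in the smaller set and 0.30 in the larger set, and Hspa9, the mitochondrial Hsp70 that drives import, had 0.23 and 0.57. These were all higher at an FDR under 5%, and in both genes the sets differed (-0.25 and 0.34, adjusted p = 0.00159 and 0.00149), in opposite directions. Leaving out myc-/- replicate 1 or 3 brought Hspa9 in the larger set to 0.59 and past the cutoff, and leaving out replicate 2 did so for Tomm20 (0.59), so the count of called members in that set was 4 in place of 3.

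The nucleotide exchange factors of Hspa9 were lower with MYC or did not pass. Grpel1 stood at 12.61, 12.65 and 12.65 without and 12.39, 12.50 and 12.50 with MYC in the smaller set, and at 13.34, 13.55 and 13.36 against 13.39, 13.47 and 13.50 in the larger set. It was lower in the smaller set (-0.17, adjusted p = 0.00168) and its groups overlapped in the larger set (0.04, 95% confidence interval -0.13 to 0.20). Grpel2, its paralog, stood at 10.63, 10.70 and 10.64 against 10.30, 10.28 and 10.25, and at 11.58, 11.57 and 11.53 against 11.41, 11.44 and 11.43. It was lower with MYC in both sets without overlap, with log2FC of -0.38 and -0.13 (adjusted p = 1.26e-05 and 0.0131), under the fold cutoff. Tada2b, which overlaps Grpel1 in RefSeq, had -0.28 and -0.19.

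The subunits of the processing peptidase moved apart. Pmpca, the alpha subunit that binds the leader, had a log2FC of 0.23 in the smaller set and 0.54 in the larger set (adjusted p = 2.49e-05 and 5.36e-05). Pmpcb, the catalytic beta subunit, had -0.23 and -0.30 (adjusted p = 1.71e-05 and 0.00125). Neither passed the fold cutoff, and the groups did not overlap for either gene in either set. Inpp5e, which overlaps Pmpca in RefSeq, had 0.24 in the smaller set and -0.09 in the larger set.

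**Figure D2:**
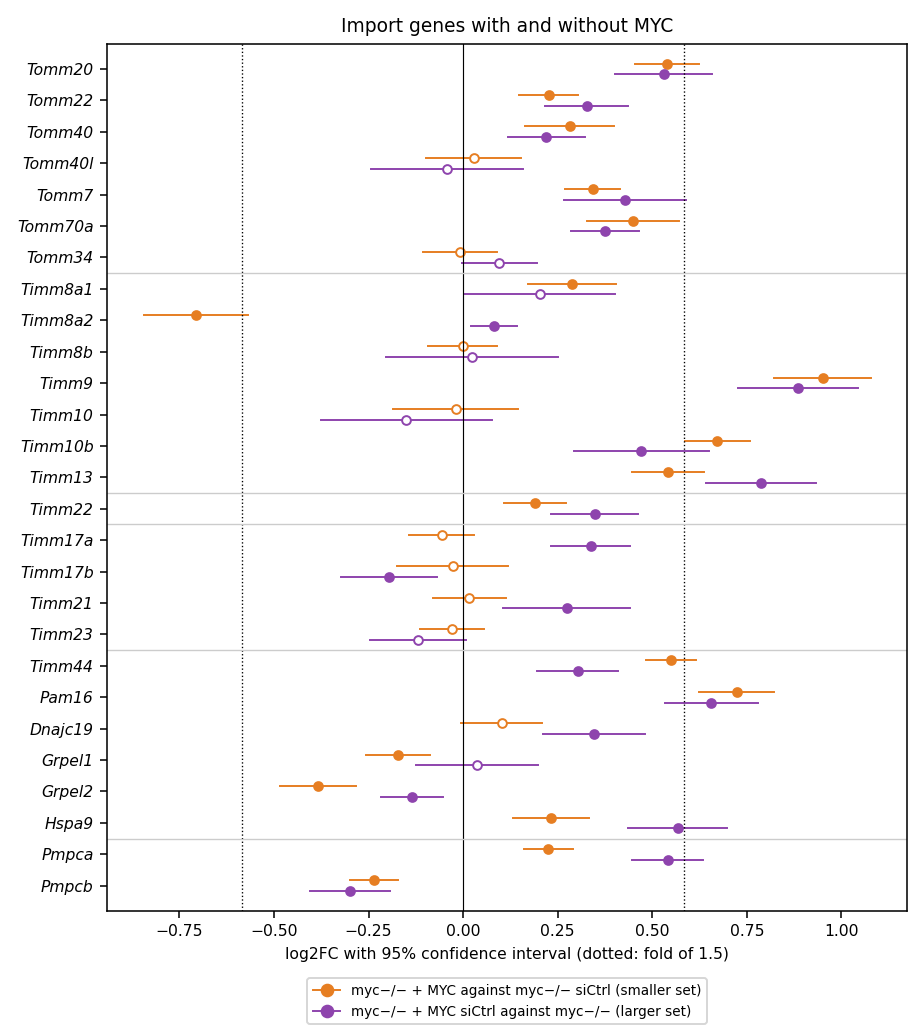
Points are the log2FC of cells with MYC over cells without it for the 27 import genes, by set, with 95% confidence intervals from limma; filled points pass an FDR of 5% and dotted lines mark a fold of 1.5. Timm9 and Pam16 lie beyond the right dotted line in both sets, and Pmpca and Pmpcb lie on opposite sides of 0.

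Because Timm9 and Timm10, and Pmpca and Pmpcb, are partners in fixed complexes, their values were also subtracted within each library, which removes the offset between libraries. These pairs were chosen after the values were seen, and the differences are a description. Timm9 minus Timm10 ran from 0.07 to 0.15 in myc-/- siCtrl cells and from 1.02 to 1.11 in myc-/- + MYC cells, while in the larger set the range was -0.01 to 0.10 for myc-/- libraries and 1.08 to 1.12 for those of myc-/- + MYC siCtrl. It was thus about 1 higher with MYC in either set, with no overlap. With siAHR-2 it ran from 1.24 to 1.28, above every siCtrl library, and with siAHR-5 from 0.94 to 1.14, overlapping siCtrl. The Pmpca value minus that of Pmpcb ran from 0.17 to 0.19 without and from 0.62 to 0.67 with MYC in the smaller set, and from -0.22 to -0.14 and from 0.59 to 0.70 in the larger set. With siAHR-2 it ran from 0.61 to 0.73, which overlaps siCtrl, and with siAHR-5 from 0.48 to 0.49, below every siCtrl library. Timm13 minus Timm8b likewise went from between 1.02 and 1.23 to between 1.64 and 1.76, and from between 0.76 and 0.92 to between 1.47 and 1.71. Its means were 1.15 and 1.69 in the smaller set, and 0.84 and 1.61 in the larger. Timm13 minus Timm8a1 was also higher with MYC in each set, without overlap, but its mean moved less. Smaller-set values lay at 1.78 to 1.97 without MYC (mean 1.90) and 2.09 to 2.28 with it (mean 2.16). Larger-set values lay at 1.01 to 1.09 (mean 1.07) without MYC and 1.65 to 1.66 (mean 1.65) with MYC and siCtrl.

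**Figure D3:**
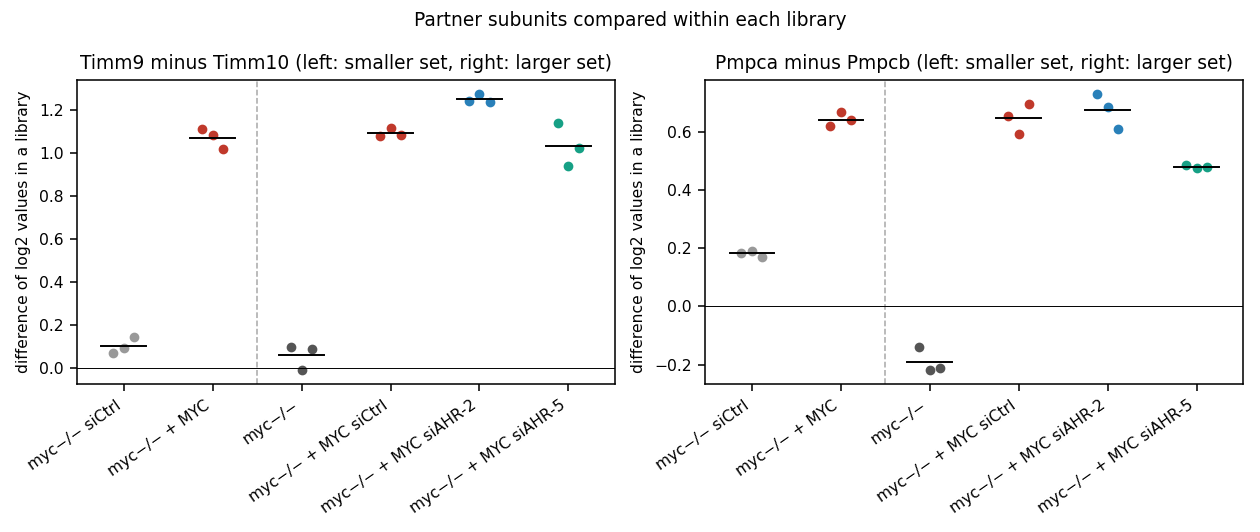
Points are the difference of 2 log2 values within a library, Timm9 minus Timm10 at left and Pmpca minus Pmpcb at right, by group; black bars are group means (n = 3) and the dashed line divides the smaller set from the larger set. Both differences are higher in every group with MYC than in the group without it in the same set.

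The sets were tested against each other for the size of the MYC effect. At the called cutoffs 1 member differed, Timm8a2, beside 16.5% of all genes in either direction and 6.79% in its own, by 0.79 (adjusted p = 2.67e-07). Since all its values in the larger set lay at the bottom of its range, this restates its fall in the smaller set and is no measure of a MYC effect in the larger. At an FDR under 5%, 10 members, Timm8a2 included, had a higher value in the larger set and 2 a lower value, beside 24.8% and 30.1% of all genes. The higher ones besides Timm8a2 and Timm17a were Hspa9 (0.34), Pmpca (0.31), Timm21 (0.26), Timm13 (0.25), Grpel2 (0.25), Dnajc19 (0.24), Grpel1 (0.21) and Timm22 (0.16), and the lower ones were Timm44 and Timm10b. For Timm9 the difference was -0.06 (95% confidence interval -0.26 to 0.13), and for Pam16 it was -0.07 (-0.22 to 0.08). No Tomm gene passed, with differences from -0.07 to 0.10. The sets differ in which group was transfected as well as in the libraries, and these cannot be told apart.

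With siRNA against AHR, the import genes that passed at an FDR under 5% were all lower, each by less than the fold cutoff. AHR is a ligand-activated transcription factor, and these comparisons ask what its knockdown changes in cells with MYC. At the called cutoffs 0 of 27 members passed with siAHR-2, beside 0.47% of all genes, and 0 with siAHR-5, beside 2.33%. With a replicate block these shares of all genes were 0% and 2.05%. The numbers of members with an unadjusted p under 0.05 by limma were 16 and 20. No share of all genes was taken at that cutoff, so they are not read as a result on the members. Even at an FDR under 5%, 29.3% and 39.2% of all genes passed. At an FDR under 5% with no fold cutoff, 13 were lower and 0 higher with siAHR-2, beside 15.5% of all genes lower and 13.7% higher, and 17 were lower and 0 higher with siAHR-5, beside 18.1% and 21.1%. The members' median log2FC was -0.11 and -0.18, where the medians over all genes were 0.00 and 0.01. Fibroblast markers summed to 20.23 to 20.25 in siCtrl, 19.99 to 20.03 with siAHR-2 and 19.95 to 19.97 with siAHR-5 on the log2 scale; none of the 10 was called with siAHR-2 and 1, Thy1, rose with siAHR-5 (log2FC 0.75), and none of the 20 other markers was called with either. Their part in these values was not tested. The siRNAs share their siCtrl libraries, which are also the MYC libraries of the larger set, so these values are set side by side and not compared. The siAHR-2 count depended on the libraries. It was 11 without siCtrl replicate 1. It was 8 without siAHR-2 replicate 1 or siCtrl replicate 2 or 3, 7 without siAHR-2 replicate 2, and 7 lower and 1 higher without siAHR-2 replicate 3. It was also 8 when all 12 libraries shared an estimate of the spread. Shares of all genes at an FDR under 5% are not given here for these refits. Whether the lower counts are particular to the import genes was not tested. Groups did not overlap for 18 members with siAHR-2 and 20 with siAHR-5, beside 43.3% and 50.5% of all genes.

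By role, 4 of 7 Tomm genes were lower with siAHR-2 and 5 of 7 with siAHR-5, beside 15.5% and 18.1% of all genes. The siAHR-2 counts by role are of the main fit, whose total of 13 went to between 7 and 11 with a library left out. Tomm20 fell by 0.13 and 0.21 (adjusted p = 0.00353 and 0.000784), Tomm40 fell by 0.15 and 0.24, and Tomm7 fell by 0.11 and 0.30. Tomm70a fell by 0.18 with siAHR-2 and had -0.05 with siAHR-5 (adjusted p = 0.317), whereas Tomm22 and Tomm34 had -0.03 and -0.01 with siAHR-2 and fell by 0.14 and 0.14 with siAHR-5. Per library, Tomm40 stood at 14.17, 14.13 and 14.10 with siAHR-2 and at 14.00, 14.13 and 14.00 with siAHR-5, all below the siCtrl libraries. Tomm40l stood at 10.88, 10.93 and 10.99 and at 11.05, 10.97 and 11.01, and overlapped the siCtrl range with both siRNAs.

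The small TIM chaperones had 2 of 7 genes lower with siAHR-2 and 5 of 7 with siAHR-5, beside 15.5% and 18.1% of all genes. Timm8b was 12.12, 12.21 and 12.26 with siAHR-2 and 12.01, 12.10 and 11.97 with siAHR-5, under every siCtrl library, and fell by 0.23 and 0.40 (adjusted p = 0.0262 and 0.00297). Timm9 stood at 12.41, 12.38 and 12.30 with siAHR-2, overlapping the siCtrl range, and at 12.004, 12.04 and 11.99 with siAHR-5, below every siCtrl library. Its log2FC was 0.02 (95% confidence interval -0.07 to 0.10) and -0.33 (adjusted p = 0.000739). Timm10b stood at 12.09, 12.12 and 12.08 with siAHR-2 and 11.70, 11.84 and 11.80 with siAHR-5, with log2FC of -0.07 and -0.38. Timm10 fell by 0.14 and 0.27. Timm8a1 stood at 12.38, 12.30 and 12.25 and at 12.07, 12.08 and 12.11, with log2FC of -0.07 and -0.29, so that it was separate from siCtrl with siAHR-5 alone. Timm13 stood at 13.91, 13.94 and 13.82 with siAHR-2 and at 13.90, 14.16 and 13.90 with siAHR-5 and did not pass with either (-0.14 and -0.04, adjusted p = 0.0782 and 0.768).

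In the inner membrane, 3 of the 4 channel genes were lower with each siRNA, beside 15.5% and 18.1% of all genes. Timm23 fell by 0.19 and 0.09 (adjusted p = 0.00102 and 0.0389), Timm17a by 0.11 and 0.20, and Timm21 by 0.11 and 0.20. Timm17a stood at 13.37, 13.45 and 13.36 and at 13.28, 13.34 and 13.28, below every siCtrl library. Timm17b was the most variable member among siAHR libraries, at 9.43, 9.47 and 9.18 and at 9.0037, 9.49 and 9.22, and overlapped siCtrl with both siRNAs. Timm22 had -0.08 and -0.05 and did not pass.

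Of the 6 motor genes, 3 were lower with siAHR-2 and 2 with siAHR-5, beside 15.5% and 18.1% of all genes. Grpel1 stood at 13.25, 13.20 and 13.21 and at 13.23, 13.30 and 13.23, below the siCtrl libraries, and fell by 0.23 and 0.20 (adjusted p = 0.00558 and 0.00893). Grpel2 stood at 11.51, 11.52 and 11.40 and at 11.36, 11.31 and 11.38, with log2FC of 0.05 and -0.07 that did not pass. Dnajc19 fell by 0.18 and 0.13. Hspa9 fell by 0.17 with siAHR-2 and had -0.06 with siAHR-5. Pam16 stood at 11.45, 11.54 and 11.58 and at 11.34, 11.62 and 11.28, with log2FC of -0.13 and -0.24 (adjusted p = 0.0544 and 0.0991). Timm44 had 0.04 and -0.08 and did not pass. Of the peptidase, Pmpcb fell by 0.09 and 0.18 (adjusted p = 0.0479 and 0.00293), while Pmpca had -0.07 with siAHR-2 (adjusted p = 0.153) and fell by 0.35 with siAHR-5 (adjusted p = 0.000686).

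**Figure D4:**
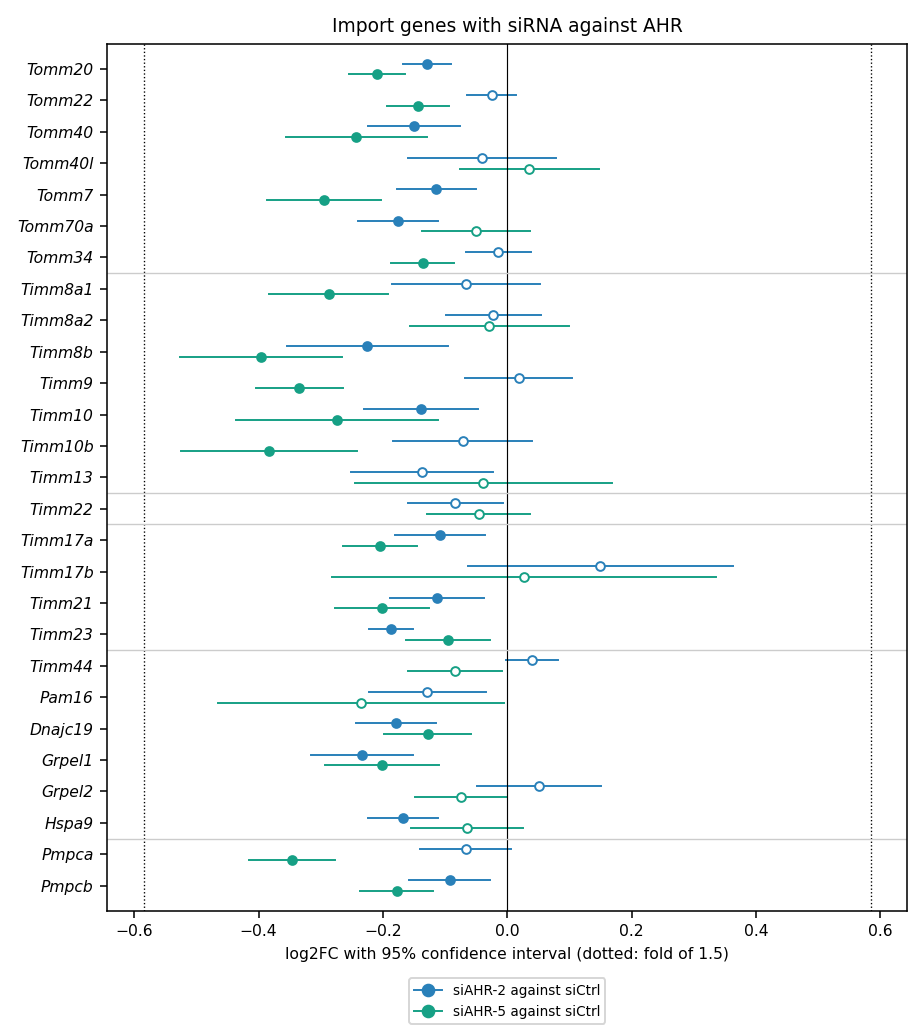
Points are the log2FC of myc-/- + MYC cells given siAHR-2 or siAHR-5 over the same siCtrl libraries, for the 27 import genes, with 95% confidence intervals from limma; filled points pass an FDR of 5% and dotted lines mark a fold of 1.5. No point reaches a dotted line, every filled point lies left of 0, and Timm9, Timm10b and Pmpca are lower with siAHR-5 than with siAHR-2.

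The siRNAs were then compared with each other. With siAHR-5 against siAHR-2, 0 of 27 members were called, beside 2.18% of all genes. An unadjusted p under 0.05 by limma was found for 17 members. That number also has no share of all genes beside it and is not read as a result. Even at an FDR under 5%, 39.1% of all genes passed. At an FDR under 5%, 11 were lower and 2 higher with siAHR-5, beside 17% and 22.1% of all genes. Centring each library on its median gave 15 lower and 0 higher, and without siAHR-2 replicate 2 there were 8 lower and 0 higher. Centring also shifted all genes by a median of -0.03, and the called genes went from 175 higher and 112 lower to 155 and 127. Shares of all genes at an FDR under 5% are not given here for these 2 fits, so their counts are not read as particular to the import genes. The lowest were Timm9 (-0.35, adjusted p = 0.00092), Timm10b (-0.31, adjusted p = 0.00248) and Pmpca (-0.28, adjusted p = 0.000427), followed by Timm8a1 (-0.22), Tomm7 (-0.18) and Timm8b (-0.17). Tomm22, Tomm34 and Timm44 had -0.12 each, Pmpcb -0.09 and Tomm20 -0.08. Tomm70a and Timm23 were higher with siAHR-5, by 0.13 and 0.09 (adjusted p = 0.0414 and 0.0391). Ahr itself did not pass between the siRNAs (-0.11, 95% confidence interval -0.25 to 0.04).

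**Figure D5:**
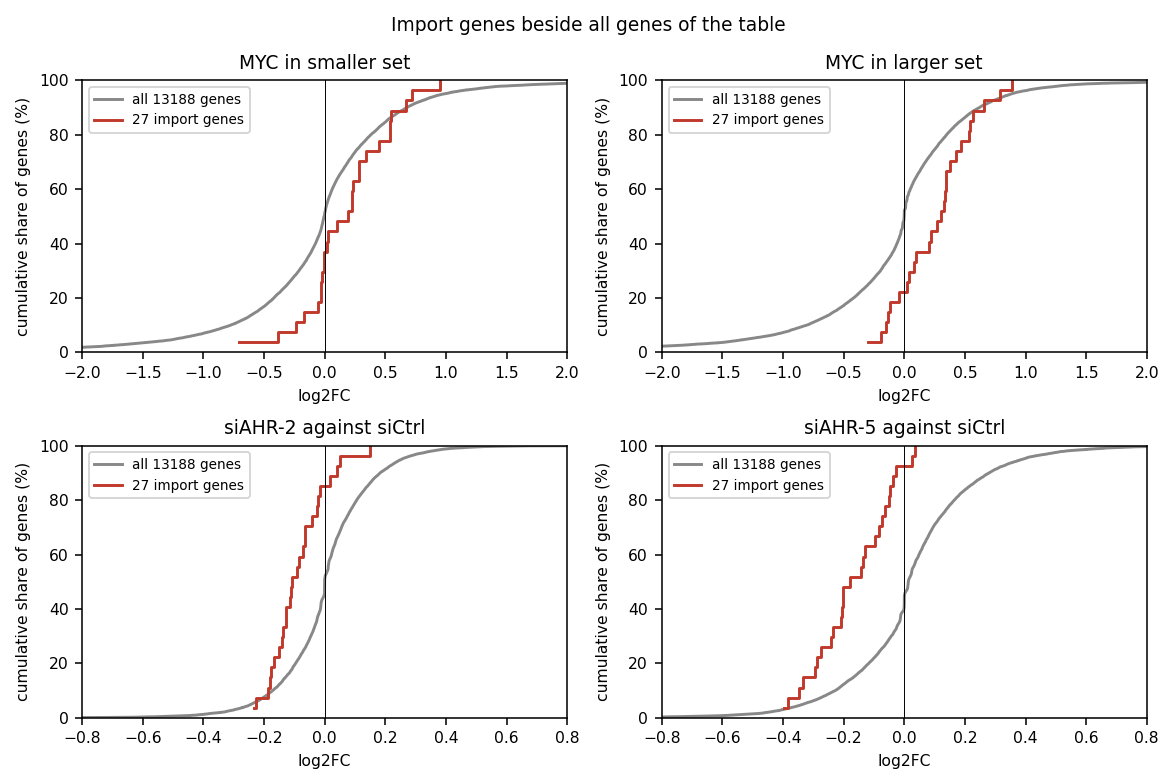
Lines give the cumulative share of genes (in percent) at or below each log2FC, for all 13188 genes and for the 27 import genes, in 4 comparisons. The line of import genes lies to the right of that of all genes over most of its range with MYC and to the left with siAHR-2 and siAHR-5, and it has shorter tails than all genes with MYC.

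Genes that act beside the translocases were read from a list of 31 further import, sorting and quality control genes, of which 27 were in the table. With MYC, 4 of the 27 rose and 1 fell in the smaller set, beside 12.5% and 14.3% of all genes, and 7 rose and 1 fell in the larger set, beside 10.8% and 14.7%. The same direction was called in both sets for 5, or 18.5%, beside 15.8% of all genes. Those that rose in both were Spg7, a subunit of an inner membrane protease (log2FC 0.88 and 0.70), Dnlz, a helper of mitochondrial Hsp70 (0.84 and 0.63), Pitrm1, which degrades cleaved leaders (0.83 and 0.83), and Xpnpep3, a mitochondrial aminopeptidase (0.64 and 0.75). Mtch1, an outer membrane insertase, fell in both (-0.77 and -1.12). With siAHR-2, 3 of the 27 were higher and 7 lower at an FDR under 5%, beside 13.7% and 15.5% of all genes, and with siAHR-5, 1 was higher and 9 lower, beside 21.1% and 18.1%; none was called with either. The median log2FC of this list was 0.06 and 0.10 with MYC and -0.04 and -0.06 with the siRNAs, each nearer to 0 than that of the translocase genes.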

How the data were processed

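The authors deposited a table of log2 expression values for 13188 genes in 18 libraries, 3 in each of 6 groups. Per the authors' methods and processing notes, reads were aligned to the rat build rn6 with HISAT2 2.1.0, genes under 10 total reads were removed and the authors normalised values with DESeq2; the counter and annotation are not given in the sources used here. The columns are named as log CPM, but taken off the log2 scale their sums exceed those of CPM and differ between libraries, so they were treated only as log2 values; counts and depth are unknown and no interval for counting error was given. Group and replicate were taken from the labels, which do not state separate cultures, so p-values measure only the spread between these libraries.

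Each comparison was fitted on its own 6 libraries over all genes with limma 3.58.1 (eBayes with a mean-variance trend) in R 4.3.3, with Benjamini-Hochberg adjustment over 13188 genes; the difference between sets was fitted on 12. The authors tested counts with DESeq2, which log2 values do not allow. Called genes passed 1.5-fold and an adjusted p of 0.01. The fit was tested on simulated data, with 200 of 13188 genes, all with a mean above 5, changed by a log2FC of 1. Of these 200, the fit recovered 199 (MYC, smaller set), 189 (MYC, larger set), 189 (siAHR-2), 183 (siAHR-5), 195 (siAHR-5 against siAHR-2) and 198 (difference between sets), with 0 false calls. Smaller changes were not simulated, so recovery at smaller sizes is unknown. Alternatives were quantile scaling, median centring, no trend, a minimum mean of 5, pseudocounts of 1 and 64, joint fits, a replicate block and leaving out each library. Every member is described by role; values per library are given for members called in any comparison and for paralog pairs, and from the list of further import genes those called in both sets are named. The members and lists were chosen with earlier results of these data known. Python 3.11.15 with matplotlib 3.10.9 drew the figures.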

Additional observations from a re-analysis of the deposited data

Results flagged for a closer look

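The log2FC of Timm8a2 with MYC differed between the sets by 0.79, by limma's test of the difference itself (adjusted p = 2.67e-07). In the smaller set Timm8a2 fell by 0.71, with 3 of 3 MYC libraries below all others, and its log2FC was 0.08 in the larger set, where all libraries lay near the lowest values of any member. The values of the larger set, 3.30 in all 3 myc-/- libraries, left no room for a fall, so the difference does not show that MYC acted on this gene differently there. With a pseudocount of 64 the difference was 0.34 and no longer passed the fold cutoff.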

How the results depend on the processing

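Counts of called members depended on the cutoff and on quantile scaling. With an FDR under 5% and no fold cutoff the counts were 18 (MYC, smaller set), 20 (MYC, larger set), 13 (siAHR-2), 17 (siAHR-5), 13 (siAHR-5 against siAHR-2) and 12 (difference between sets). Quantile scaling gave 7 and 6 for MYC, adding Tomm20, Timm13 and Timm44 in the smaller set and Tomm20, Hspa9 and Pmpca in the larger set. The difference between sets gave 0 with a minimum mean of 5, which removed Timm8a2, and 0 with a pseudocount of 64. At an FDR under 5%, siAHR-2 gave 8 with all 18 libraries in the fit and 8 with 12, the latter chosen after seeing the data; the cause was not tested. Leaving out each library gave 4 and 3 to 4 called members for MYC in the smaller and larger sets, 0 for each siRNA comparison and 1 for the difference. Under the FDR rule it gave 18 to 19, 17 to 22, 7 to 11 (siAHR-2), 14 to 19 (siAHR-5), 8 to 18 (siAHR-5 against siAHR-2) and 9 to 14 (difference). Shares of all genes under the FDR rule are given here for the main fit only.

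Each member was refitted by name only where it passed an FDR of 5% or belonged to a paralog pair; among these, signs changed for values near 0 that were not called. Other values near 0 printed here were not followed in this way, and their signs are not to be read. In the smaller set, Tomm40l went to -0.023 with quantile scaling and -0.014 with centring, and quantile scaling brought Timm8b to 0.014 and Timm17a to 0.0024; leaving out a library gave -0.017 to 0.073 (Tomm40l), -0.023 to 0.032 (Timm8b) and -0.078 to 0.024 (Timm17b). In the larger set, Tomm40l went to 0.00094 with centring, and leaving out a library gave -0.12 to 0.0049 (Tomm40l), -0.039 to 0.12 (Timm8b) and -0.0020 to 0.10 (Grpel1). With siAHR-5, Tomm40l went to -0.024 with quantile scaling and -0.024 with centring, and Timm17b to -0.13 and -0.033, or -0.098 to 0.14 leaving out a library.

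Correlations of same-numbered deviations ran from -0.26 to 0.24. With 3 libraries per group these do not settle whether replicate numbers pair the libraries. With a replicate block the counts of called members were 4, 3, 0, 0, 0 and 1, as without it, and the FDR counts were 18, 19, 10, 15, 13 and 11. Over all genes, however, the block took the siAHR-2 calls from 62 to 0, which ended the call of Ahr there. The siAHR-5 calls over all genes went from 307 to 271. Depth is unknown, so its part in the low values of Timm8a2 and Timm17b was not tested.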
